A study of Homo sapiens with 18 samples.

Results

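LNCaP, an established androgen-responsive human prostate cancer cell line, was transfected for 72 h with siPARP1-B, the second of a pair of small interfering RNAs (siRNAs) against PARP1, or with the control siRNA siNC. Each condition was measured in 2 libraries, which the study's design text calls biological duplicates. The members of this comparison are the 12701 of 18350 genes in the knockdown table whose mean value over its 10 libraries was at least 1. The threshold lay between ZNF648, just inside at a mean of 1.001, and GYG2P1, just outside at 0.9996. The same table holds 2 libraries each of siPARP1-A, siPARP2-A and siPARP2-B, all in the same cells, and the whole series has 18 libraries, the other 8 from cells given PARP inhibitors or vehicle. The culture medium was RPMI with fetal bovine serum for every group. The siRNA sequences were not given in the sources used here, and LNCaP is a single line.

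PARP1 is the most abundant of the nuclear enzymes that build chains of ADP-ribose from NAD. It binds DNA strand breaks, modifies itself, histones and repair proteins, and also takes part in transcription. In prostate cancer it is known as a drug target in tumours with defects in homologous recombination. PARP2 is its closest relative and also responds to DNA breaks.

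Values, written below as normalised reads, are reads divided by each library's size in M, after the authors had scaled that size. They are not divided by gene length, so levels are compared within a gene only. PARP1 itself was at 452 and 479 normalised reads in the siNC libraries and at 8.99 and 9.05 in the siPARP1-B libraries. The knocked-down libraries thus kept 1.94% of the control mean, a log2 fold change of -5.54 (95% confidence interval -5.69 to -5.39, adjusted p = 5.1e-26 by limma), which fits the labels. PARP2 was at 28.96 and 25.8 in siNC and at 19.8 and 17.96 in siPARP1-B. That fall of PARP2 (log2 fold change -0.51, SE 0.14, adjusted p = 0.0043) was small beside that of PARP1, and it missed the threshold without siNC replicate 1 (adjusted p = 0.061) or without siPARP1-B replicate 2 (adjusted p = 0.058).

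The 10 libraries held 15.5 to 18.6 M reads in genes, and 3 reads corresponded to 0.169 to 0.207 normalised reads. The siNC pair differed more between its libraries than any other pair, with a chi-square per gene of 8.21 against 3.54 for siPARP1-B, and no 2 libraries were identical. Mitochondrially encoded RNA took 2.96% and 3.72% of reads in siNC and 4.13% and 5.03% in siPARP1-B. Luminal prostate markers were all present (14 of 14), with summed levels of 6828 and 7093 in siNC and 6191 and 6218 in siPARP1-B. The summed level of the 7 basal markers found was 46.0 and 41.6 in siNC and 36.0 and 38.3 in siPARP1-B, and that of the 2 immune or endothelial markers found 1.82 and 2.24 against 1.07 and 0.967. These 3 sums were lower in both siPARP1-B libraries, and their part in the results was not tested. The 7 stromal markers found summed to 10.8 to 12.6, with overlap between groups. In bulk RNA, fewer cells of a kind and less RNA per cell cannot be told apart.

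The transcriptome moved widely but mostly by small steps. Of the genes tested, 2088 rose (16.4%) and 3037 fell (23.9%) at an adjusted p below 0.05, together 40.4%, while 7576 did not pass. The median rise among genes called was 0.44 and the median fall -0.37 on the log2 scale, beside a median over all genes of -0.03. A change of at least 2-fold was seen for 96 genes that rose (0.756%) and 132 that fell (1.04%). Besides PARP1, large changes that rested on many reads were those of SHMT2 among the rises and VDAC1, COLCA1 and PEX19 among the falls. Adjusted p-values are by limma over all genes tested.

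**Figure D1:**
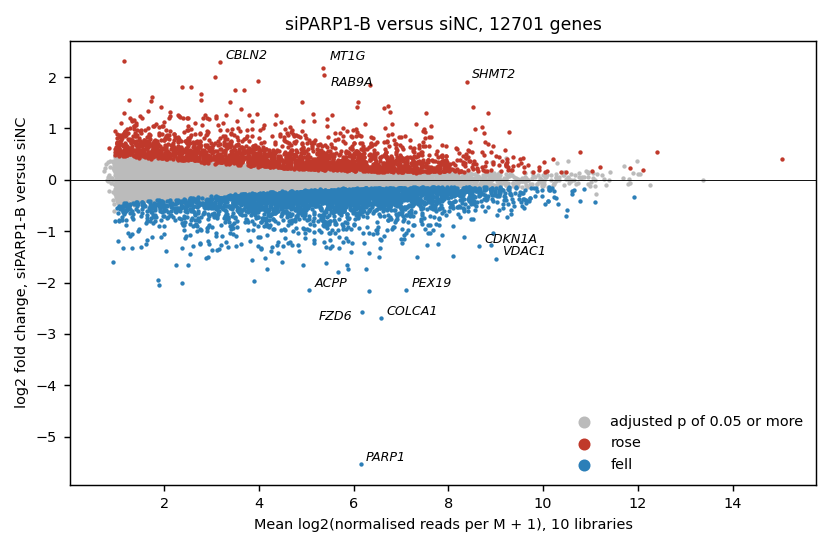
Log2 fold change of siPARP1-B versus siNC against the mean log2(normalised reads + 1) over 10 libraries, 1 point per gene. Red points rose (2088 genes), blue points fell (3037 genes) and grey points did not pass an adjusted p of 0.05, and PARP1 lies far below every other gene at -5.54.

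The 15 largest rises include RNA5-8SP6, a ribosomal RNA pseudogene whose reads may come from near-identical copies (0.519 and 0.287 normalised reads in siNC, 5.13 and 6.91 in siPARP1-B). CBLN2, a secreted protein that organises synapses, went from 2.66 and 2.93 to 17.6 and 17.5 (log2 fold change 2.29, SE 0.12, adjusted p = 1.2e-13). Both siPARP1-B libraries stood above both controls in each case, which the naming rule required. Secretory and membrane traffic was represented by RAB31, a small GTPase, at 2.53 and 3.50 in siNC and 14.8 and 15.3 in siPARP1-B (2.01, SE 0.13). NPPC, the precursor of C-type natriuretic peptide, rose from 6.56 and 6.66 to 22.8 and 23.3 (1.66, SE 0.13). CALCRL, a receptor for calcitonin gene-related peptide and adrenomedullin, rose by 1.61 (SE 0.18). Matrix genes in this set were RELN, an extracellular glycoprotein (1.81, SE 0.19), and COL12A1, a collagen, at 1.23 and 1.32 in siNC and 5.93 and 5.53 in siPARP1-B. RNA5-8SP6 and COL12A1 had means of 0.717 and 0.891 over the other 8 libraries, so they passed the filter only through siPARP1-B. They had to be higher there than the mean of those 8, and their rises are a description only. Such genes numbered 74 of those tested, of which 38 were called higher than in siNC and 0 lower. FAM129A rose by 1.75 (SE 0.12) and SI, the sucrase-isomaltase of the intestinal brush border, by 1.75 (SE 0.11), from 5.58 and 5.57 to 20.7 and 21.7. RAB9A, a GTPase of late endosomes that has near-identical pseudogenes, went from 12.2 and 13.2 to 54.6 and 55.6 (2.04, SE 0.07). The 6 libraries of the other siRNAs against PARP1 or PARP2 held RAB9A at 46.0 to 57.5, and siPARP1-B did not pass a test against siPARP1-A (difference 0.03, adjusted p = 0.78) or against the mean of the PARP2 siRNAs (0.07, adjusted p = 0.34).

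After PARP1, the largest fall was of COLCA1, a gene named for its link to colorectal cancer, from 455 and 460 normalised reads to 67.1 and 72.3 (log2 fold change -2.70, SE 0.06, adjusted p = 2e-20). This low level was largely shared with the other siRNAs. Over the alternative settings, COLCA1 in siPARP1-B differed from siPARP1-A by -0.35 to -0.24 on the log2 scale. From the mean of the PARP2 siRNAs it differed by 0.35 to 0.46, so it was not lowest with siPARP1-B. FZD6, a Frizzled receptor for Wnt ligands, fell from 123 and 118 to 18.8 and 19.8 (-2.58, SE 0.06). PEX19, the chaperone that brings membrane proteins to peroxisomes, fell from 176 in both control libraries to 39.4 and 38.5 (-2.15, SE 0.06). None of these groups overlapped, which the naming rule required. ACPP, which encodes prostatic acid phosphatase, went from 104 and 99.2 to 20.9 and 23.4 (-2.15, SE 0.08), and TARP, a prostate transcript from the T-cell receptor gamma locus, from 57.8 and 51.5 to 15.3 and 16.2 (-1.73, SE 0.11). AGR2, a protein disulfide isomerase of the endoplasmic reticulum, fell by 1.66 (SE 0.09), and FXYD3, a regulator of the sodium pump, by 1.74 (SE 0.07). ABCA12, a lipid transporter, fell by 1.96 (SE 0.10). PRCC, a nuclear protein rearranged in papillary kidney cancer, went from 65.3 and 69.3 to 19.9 and 17.3 (-1.80, SE 0.08). TPGS2, a subunit of the tubulin polyglutamylase, went from 106 and 102 to 30.8 and 29.8 (-1.75, SE 0.07). Lower in abundance were RFX6, a transcription factor of the endocrine pancreas (-2.04, SE 0.16), the long noncoding RNA CCDST (-2.00, SE 0.17) and C8orf4 (-1.94, SE 0.17), which reached 0.400 normalised reads in 1 siPARP1-B library. The strand setting of the counting was not given in the sources used here, so reads of overlapping transcripts may be shared.

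**Figure D2:**
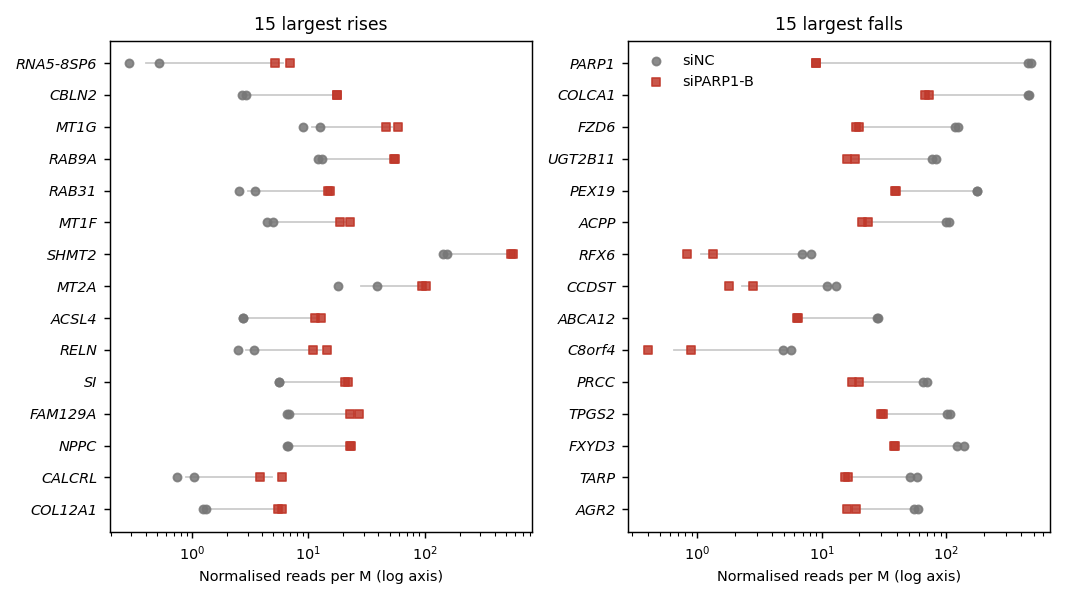
Normalised reads per M (log axis) in the 2 siNC libraries (grey circles) and the 2 siPARP1-B libraries (red squares) for the 15 largest rises and the 15 largest falls, with a grey line joining the group means. The groups do not overlap for any of the 30 genes, which the naming rule required, and PARP1 moves furthest, from 452 and 479 to 8.99 and 9.05.

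The integrated stress and unfolded protein responses were tested as 1 list. Of 41 tested members, 21 rose (51.2%, against 16.4% over all genes) and 8 fell (19.5%, against 23.9%). The median was 0.18 against -0.03 over all genes. The integrated stress response is the arm in which the transcription factor ATF4 drives genes for amino acid synthesis, uptake and transfer RNA charging, while the unfolded protein response raises chaperones of the endoplasmic reticulum. SHMT2, the mitochondrial enzyme that turns serine into glycine and one-carbon units, was at 143 and 155 normalised reads in siNC and 572 and 555 in siPARP1-B (log2 fold change 1.91, SE 0.06, adjusted p = 1.7e-18). PHGDH, the first enzyme of serine synthesis, went from 224 and 257 to 600 and 582 (1.30, SE 0.06), and PSAT1, the next step, from 272 and 251 to 527 and 536 (1.02, SE 0.06). PSPH, the last step of serine synthesis, and MTHFD2, a mitochondrial folate enzyme, rose less (0.36 and 0.42). Charging enzymes also rose, GARS for glycine from 219 and 208 to 420 and 431 (0.99, SE 0.06), CARS for cysteine by 0.73, AARS for alanine by 0.66 and WARS for tryptophan by 0.38.

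Stress regulators of the same list rose with them. ATF4 itself went from 272 and 300 to 383 and 357 (0.37, adjusted p = 3e-05). TRIB3, a pseudokinase that feeds back on ATF4, went from 39.5 and 37.6 to 77.6 and 74.8 (0.96), and CHAC1, which degrades glutathione, from 10.5 and 10.3 to 24.0 and 22.5 (1.09). STC2, a secreted glycoprotein, rose by 1.18, ASNS, which makes asparagine, by 0.62 and SLC7A5, a transporter of large neutral amino acids, by 0.83. Some of these rises were shared with the other siRNAs. Mean ASNS was 298 with siPARP1-B, 337 with siPARP1-A, 329 with siPARP2-A and 286 with siPARP2-B. In the same order, mean TRIB3 was 76.2, 74.7, 52.2 and 80.9, and mean CHAC1 23.2, 14.5, 20.7 and 36.8. STC2 was highest with siPARP1-B, at means of 64.3, 43.2, 49.4 and 35.5. Members that fell included SDF2L1 (-0.48), CRELD2 (-0.46), MANF (-0.44), DNAJB9 (-0.36) and HSPA5, the main chaperone of the endoplasmic reticulum, at 1564 and 1468 in siNC and 1188 and 1199 in siPARP1-B (-0.34, adjusted p = 2.3e-05). STC2, CHAC1, TRIB3, ASNS, ATF4 and the chaperones, like the other members given here outside the naming rule, were chosen after their values were seen.

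The amino acid response element bound by ATF4 was searched as TGATGNAA on both strands in the 250 bases before the RefSeq start of each gene (GRCh38.p14). It was present in 3 of the 19 raised stress members with a promoter entry (AARS1, ASNS and CHAC1), in 1 of the 8 lowered members (HERPUD1), in 5 of the 38 tested members with an entry and in 3.19% of 27305 promoters. Windows of 2 of these genes follow, 5′ to 3′ in the gene's direction, to show where the match lies, with the match in capitals. CHAC1 is at chr15:40953221-40953470 (+ strand) and ASNS at chr7:97872409-97872658 (- strand).
CHAC1: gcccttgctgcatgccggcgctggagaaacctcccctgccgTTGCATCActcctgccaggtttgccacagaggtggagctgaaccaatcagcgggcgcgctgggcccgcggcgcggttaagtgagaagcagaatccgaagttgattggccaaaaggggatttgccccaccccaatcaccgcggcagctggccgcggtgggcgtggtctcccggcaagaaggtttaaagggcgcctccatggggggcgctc
ASNS: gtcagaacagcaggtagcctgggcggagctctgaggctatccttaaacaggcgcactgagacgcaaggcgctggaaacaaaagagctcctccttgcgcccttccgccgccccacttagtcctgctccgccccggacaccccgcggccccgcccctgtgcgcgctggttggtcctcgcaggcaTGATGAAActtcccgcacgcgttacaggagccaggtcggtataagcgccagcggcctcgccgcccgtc
A match is a description of the letters and does not show binding.

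Sterol synthesis also rose. Of 25 cholesterol biosynthesis genes, 16 rose (64%, against 16.4% over all genes) and 5 fell (20%, against 23.9%), with a median of 0.24. ACAT2, the thiolase that starts the pathway from acetyl-CoA, went from 63.8 and 60.2 normalised reads to 114 and 110 (0.84, SE 0.06, adjusted p = 1.1e-10). SQLE, the squalene epoxidase, went from 108 and 99.7 to 166 and 170 (0.69, SE 0.06). The siPARP1-B libraries stood above both controls for each of these genes. MSMO1, a later sterol oxidase, went the other way, from 189 and 188 to 117 and 114 (-0.70, SE 0.06). HMGCS1, the synthase early in the pathway, did not pass (0.13, adjusted p = 0.079), although it was called higher in 5 alternatives, among them edgeR (0.16, adjusted p = 0.026).

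Fatty acid genes were mixed, with 8 of 22 rising (36.4%, against 16.4% over all genes) and 4 falling (18.2%, against 23.9%). SCD, the desaturase that makes oleate, went from 314 and 313 to 567 and 612 (0.91, SE 0.06). ACSL4, which activates long polyunsaturated fatty acids and favours arachidonate, went from 2.73 and 2.76 to 11.5 and 12.8 (1.81, SE 0.15). The elongases ELOVL1 and ELOVL5 fell (-0.53 and -0.52), ELOVL5 from 1290 and 1220 to 847 and 906.

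Metallothioneins, small cysteine-rich proteins that bind zinc and copper and are induced by metals, rose for all 4 of the members tested out of 12 listed. This list was drawn up after MT1G, MT1F and MT2A had appeared among the largest rises, so its count is a description. MT1G was at 12.7 and 8.96 normalised reads in siNC and at 58.4 and 46.5 in siPARP1-B (2.19, SE 0.11). MT1F went from 4.9998 and 4.42 to 22.8 and 18.8 (1.93, SE 0.11), and MT1X from 3.96 and 3.50 to 9.52 and 7.12 (0.97, SE 0.13). MT2A was uneven in the controls, at 39.0 and 18.1, and reached 103 and 94.6 (1.86, SE 0.22). These genes are close in sequence, so reads may be shared between them. In the libraries of the other 3 siRNAs against PARP1 or PARP2, MT1G was at 43.0 to 75.05, a range that holds both siPARP1-B values.

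The core of the metal response element, to which the zinc-sensing factor MTF1 binds, was searched as TGCACNC or TGCGCNC on both strands, overlaps counted. Both metallothioneins with a promoter entry, MT2A with 7 matches and MT1X with 4, held it, as did 24.7% of all promoters. Their windows show the repeats, in capitals. MT2A is at chr16:56608334-56608583 (+ strand) and MT1X at chr16:56682220-56682469 (+ strand).
MT2A: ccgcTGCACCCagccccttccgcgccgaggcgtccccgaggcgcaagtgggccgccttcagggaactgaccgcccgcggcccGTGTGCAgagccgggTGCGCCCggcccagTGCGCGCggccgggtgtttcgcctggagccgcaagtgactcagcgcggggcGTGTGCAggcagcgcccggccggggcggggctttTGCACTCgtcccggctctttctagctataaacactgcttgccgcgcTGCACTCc
MT1X: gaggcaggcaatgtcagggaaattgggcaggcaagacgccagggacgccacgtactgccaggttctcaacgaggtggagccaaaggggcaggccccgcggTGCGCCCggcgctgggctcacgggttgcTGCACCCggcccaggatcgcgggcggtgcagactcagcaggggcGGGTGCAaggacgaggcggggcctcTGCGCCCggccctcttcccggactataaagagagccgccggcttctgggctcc

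Nuclear genes of the respiratory chain were widely lowered. The respiratory chain passes electrons from NADH and succinate through its complexes to oxygen and ends in ATP synthase, and most of its subunits come from nuclear genes. Of 73 such genes, 44 fell (60.3%, against 23.9% over all genes) and 3 rose (4.11%, against 16.4%), with a median of -0.23. The 4 libraries were separate in the downward direction for 56 of the 73, beside 38.2% of all genes tested. In complex I, NDUFA5 went from 193 and 176 normalised reads to 101 and 99.1 (-0.88, SE 0.06, adjusted p = 3.4e-11). UQCRFS1, the iron-sulfur subunit of complex III, fell from 192 and 195 to 140 and 126 (-0.54), and COX5B of complex IV from 227 and 239 to 180 and 169 (-0.42). In ATP synthase, ATP5L fell by 0.57 and ATP5I by 0.53. The 3 that rose were NDUFB5, from 84.9 and 78.3 to 155 and 140 (0.85, SE 0.06), COX4I1, from 361 and 377 to 504 and 507 (0.45), and the complex I subunit NDUFS4 (0.30). The share of reads from the mitochondrial genome was higher in both siPARP1-B libraries, as given above, and its part in these counts was not tested. VDAC1, the main channel of the outer mitochondrial membrane, which was on no list, went from 732 and 684 to 250 and 236 (-1.54, SE 0.06, adjusted p = 1.6e-16).

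Glycolysis and hypoxia genes fell in 18 of 37 (48.6%, against 23.9% over all genes) and rose in 5 (13.5%, against 16.4%). Their median was -0.14. CA12, a hypoxia-induced carbonic anhydrase, went from 47.6 and 45.4 to 22.3 and 22.6 (-1.02, SE 0.08). BNIP3L, a mitophagy receptor, went from 245 and 215 to 130 and 134 (-0.79, SE 0.06), and P4HA1, a collagen prolyl hydroxylase, fell by 0.61. GAPDH fell by 0.33 and PKM, the pyruvate kinase, by 0.47, whereas PFKM, a phosphofructokinase, went from 98.9 and 106 to 176 and 174 (0.77, SE 0.06). LDHA (-0.19) lost its call without siNC replicate 1 (adjusted p = 0.12) or without siPARP1-B replicate 2 (adjusted p = 0.078). Of 24 targets of NRF2, the regulator of antioxidant genes, 12 fell (50%) and 2 rose (8.33%). NQO1, a quinone reductase, went from 429 and 442 to 305 and 306 (-0.51), FTH1, the ferritin heavy chain, fell by 0.43, and ME1, the malic enzyme, rose by 0.64.

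Interferon-stimulated genes were lower, with 42.2% that fell and 2.22% that rose, against 23.9% and 16.4% over all genes. Of 45 tested, 19 fell and 1 rose, with a median of -0.24, and the count of falls was 12 without siPARP1-B replicate 2. These genes are induced through interferon receptors and STAT factors, and they include antiviral proteins and parts of antigen presentation. TAP1, a peptide transporter of antigen presentation, went from 40.2 and 43.0 normalised reads to 16.8 and 17.5 (-1.23, SE 0.08, adjusted p = 4e-12). GBP2, a guanylate-binding protein, went from 4.74 and 4.77 to 2.13 and 1.66 (-0.996, SE 0.15), and USP18, which removes ISG15 from proteins, from 21.0 and 25.1 to 14.7 and 14.4 (-0.63, SE 0.09). ISG15, a ubiquitin-like modifier, went from 57.1 and 61.1 to 43.6 and 44.4 (-0.42), and the antiviral RSAD2 stayed below 1 normalised read in all 4 libraries. STAT2 was the member that rose (0.26).

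Class I antigen presentation fell in 10 of 20 genes (50%, against 23.9% over all genes) and rose in 2 (10%, against 16.4%). B2M, the light chain of class I molecules, went from 687 and 706 to 469 and 462 (-0.58, SE 0.06). HLA-B (-0.53) and HLA-C (-0.54), whose reads can be shared between these similar genes, fell too, HLA-C from 168 and 180 to 120 and 118. TAP2, the partner of TAP1, went the other way, from 8.83 and 10.97 to 15.8 and 17.0 (0.68, SE 0.12, adjusted p = 0.00011).

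The interferon-stimulated response element was searched on both strands as TTTC repeated after any 2 bases. It was found in 9 of the 16 lowered members with a promoter entry, in 19 of the 35 tested members with one, and in 3.07% of all promoters. TAP1 and IFI44 are shown as lowered members that hold the element, in capitals, TAP1 with 2 overlapping matches at chr6:32853705-32853954 (- strand) and IFI44 at chr1:78649539-78649788 (+ strand).
TAP1: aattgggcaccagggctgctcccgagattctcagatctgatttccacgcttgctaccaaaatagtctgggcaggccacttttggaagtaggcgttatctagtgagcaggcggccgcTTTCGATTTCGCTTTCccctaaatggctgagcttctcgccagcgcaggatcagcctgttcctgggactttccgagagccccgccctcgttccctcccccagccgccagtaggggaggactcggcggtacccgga
IFI44: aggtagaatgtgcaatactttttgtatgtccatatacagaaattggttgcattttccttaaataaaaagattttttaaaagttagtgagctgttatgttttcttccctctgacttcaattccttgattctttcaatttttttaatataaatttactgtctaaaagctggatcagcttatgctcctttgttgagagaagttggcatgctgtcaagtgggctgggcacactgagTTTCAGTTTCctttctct

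Androgen-regulated genes split in both directions. Of 52 androgen-induced genes, 12 rose (23.1%, against 16.4% over all genes) and 19 fell (36.5%, against 23.9%). Their median was -0.04, close to that of all genes. KLK3, which encodes prostate-specific antigen, was at 1176 and 1413 normalised reads in siNC and 1165 and 1121 in siPARP1-B and did not pass (-0.17, 95% confidence interval -0.32 to -0.03, adjusted p = 0.055). Its value depended on which siNC library was kept: without siNC replicate 1 it was -0.31 (adjusted p = 0.002), and without siNC replicate 2 it was -0.04 (adjusted p = 0.7). KLK2 did not pass either (0.06, adjusted p = 0.53), nor did SLC45A3, a luminal transporter (0.07, adjusted p = 0.37, but 0.13 and 0.018 with the added correction for GC content and length). TMPRSS2, a membrane protease and the promoter donor of ETS fusions in prostate cancer, went from 810 and 864 to 380 and 391 (-1.12, SE 0.05, adjusted p = 5.3e-14). ALDH1A3, a retinal dehydrogenase, went from 74.5 and 68.6 to 31.4 and 31.2 (-1.16, SE 0.08). On the other side, STEAP4, a metalloreductase, went from 17.7 and 17.97 to 50.7 and 54.6 (1.51, SE 0.13), and the cold-sensing channel TRPM8 from 39.9 and 43.4 to 74.3 and 81.2 (0.88, SE 0.09).

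Luminal regulators and keratins were mostly lower. Of 18 luminal transcription factor genes, 10 fell (55.6%, against 23.9% over all genes) and 1 rose (5.56%, against 16.4%). The coactivator NCOA3 went from 32.9 and 33.6 to 17.8 and 22.4 (-0.71, SE 0.10), CREB3L4 fell by 0.59, the ETS factor ETV1 by 0.51 and GRHL2, an epithelial factor, by 0.40, while the pioneer factor FOXA1 did not pass (0.12, adjusted p = 0.27). Among luminal markers, 9 of 14 fell (64.3%) and 1 rose (7.14%). KRT8 went from 948 and 1069 to 668 and 669 (-0.59) and KRT18 from 365 and 358 to 239 and 235 (-0.61). The tight junction gene CLDN4 went from 229 and 262 to 130 and 136 (-0.88). Of the 4 neuroendocrine markers tested, DLL3 rose (10.4 and 9.93 to 17.0 and 13.5) and so did SYP (1.88 and 1.61 to 3.86 and 2.83), SYP not without siPARP1-B replicate 1 (adjusted p = 0.077), while the summed level of that list overlapped between groups (225 and 235 in siNC, 225 and 235 in siPARP1-B).

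Androgen-repressed genes fell in 12 of 24 (50%, against 23.9% over all genes) and rose in 4 (16.7%, against 16.4%). Among them were UGT2B enzymes, which attach glucuronic acid to androgens and so inactivate them. All 7 UGT2B genes tested were called lower, a list drawn up after UGT2B11 was seen. However, UGT2B4 and UGT2B7, both under 1 normalised read in siNC, lost the call with DESeq2 (adjusted p = 0.11 and 0.083). With only the groups compared they lost it too (adjusted p = 0.062 and 0.069 by limma), as they did when single libraries were left out. UGT2B7 also lost it with plain reads per M (adjusted p = 0.054 by limma). UGT2B11 went from 82.0 and 77.0 to 15.9 and 18.3 (-2.16, SE 0.07), UGT2B15 from 233 and 194 to 97.5 and 103 (-1.08), and UGT2B17 from 516 and 437 to 276 and 280 (-0.77). Reads can be shared between these near-identical genes.

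CDKN1A, the p53-induced inhibitor of cyclin-dependent kinases known as p21, was lower. It went from 333 and 370 normalised reads to 148 and 137 (-1.30, SE 0.06, adjusted p = 4.9e-14). Of 38 p53 targets, 8 rose (21.1%) and 10 fell (26.3%), shares close to the 16.4% and 23.9% over all genes. The death receptor TNFRSF10B went from 219 and 227 to 106 and 104 (-1.08), TP53INP1, an autophagy and stress gene, fell by 0.67, and so did the stress cytokine GDF15 (-0.57). CMBL, a hydrolase, went from 63.9 and 64.3 to 133 and 140 (1.08, SE 0.06), BBC3, a death-promoting BCL2 relative, rose by 0.58 and GADD45A, a growth arrest gene, by 0.56. MDM2, the ligase that degrades p53, did not pass (-0.13, adjusted p = 0.12), except without siPARP1-B replicate 2 (-0.23, adjusted p = 0.028). Among 16 BCL2 family genes, 6 rose (37.5%) and 6 fell (37.5%). PMAIP1, another death-promoting member, went from 46.3 and 42.5 to 79.8 and 81.7 (0.85, SE 0.07).

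Mitotic genes rose about as often as genes in general but fell less often. Of 48, 9 rose (18.8%, against 16.4% over all genes) and 6 fell (12.5%, against 23.9%), and the count that rose changed with the processing. BIRC5, the survivin gene, went from 26.6 and 22.5 to 12.9 and 12.4 (-0.90, SE 0.11), while the spindle genes ASPM and HMMR rose by 0.50 and 0.44. MKI67, the proliferation marker, was at 6.75 and 11.1 in siNC and 12.4 and 9.88 in siPARP1-B and did not pass (0.31, adjusted p = 0.23), except without siNC replicate 2 (0.64, adjusted p = 0.04). Of 49 replication genes, 13 fell and 3 rose, but 8 fell with plain reads per M, 5 with DESeq2 and 4 without siNC replicate 2. The falls made up 26.5% of the replication list, close to the 23.9% over all genes, and the rises 6.12%, against 16.4%. RRM2, the ribonucleotide reductase subunit, went from 96.8 and 89.8 to 71.9 and 66.9 (-0.42, SE 0.08).

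Apart from PARP1 itself, the DNA repair and ADP-ribose genes named here moved by at most 0.68 on the log2 scale. Of all genes tested, 16.4% rose and 23.9% fell. The shares that rose and fell were 0% and 17.5% of homologous recombination or Fanconi genes and 4% and 20% of base excision genes. Neither repair list thus fell more often than genes in general. For ADP-ribose genes the shares were 20% and 33.3%. No homologous recombination or Fanconi gene of 40 rose and 7 fell, 3 of them with DESeq2 and 4 with plain reads per M or without siPARP1-B replicate 1. BARD1, the partner of BRCA1, went from 163 and 148 to 90.9 and 102 (-0.68, SE 0.06), and FANCD2 fell by 0.42. In base excision repair 5 of 25 fell and 1 rose, HMGB1, a chromatin protein that bends DNA, from 297 and 288 to 425 and 436 (0.55, SE 0.05). LIG3, the ligase of single-strand break repair, fell by 0.30. Among 30 ADP-ribosyltransferases and enzymes of NAD supply and ADP-ribose removal, PARP1 and PARP2 included, 10 fell and 6 rose, and 5 fell with DESeq2. PARP4, the vault-associated member, went from 111 and 107 to 72.4 and 76.5 (-0.54, SE 0.06), and NAMPT, which limits NAD synthesis, from 299 and 277 to 218 and 231 (-0.36).

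The BMP-induced ID genes, inhibitors of basic helix-loop-helix factors, fell together in a list of 12 TGF-beta and BMP targets. Of these, 6 fell (50%, against 23.9% over all genes) and 3 rose (25%, against 16.4%). ID2 went from 79.2 and 80.7 to 37.4 and 39.7 (-1.03, SE 0.06), ID3 from 118 and 139 to 67.1 and 62.8 (-0.97) and ID1 from 187 and 218 to 123 and 118 (-0.74). THBS1, an extracellular matrix glycoprotein, went from 8.38 and 8.56 to 21.6 and 22.3 (1.28, SE 0.10), and FN1, fibronectin, from 324 and 336 to 155 and 185 (-0.96). Immediate early genes fell in 9 of 17 (52.9%) and rose in 1 (5.88%). SPRY4, a feedback inhibitor of growth factor signalling, fell by 1.45 and DUSP1, a phosphatase of MAP kinases, by 0.80. MYC went from 53.05 and 52.9 to 71.7 and 73.8 (0.45, SE 0.06).

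Ribosomal protein genes gave few calls: 11 of 78 rose (14.1%, against 16.4% over all genes) and 3 fell (3.85%, against 23.9%). The count that rose depended on the processing, and ran from 2 without siNC replicate 2 to 23 with plain reads per M. Of 34 MYC and ribosome biogenesis genes 8 rose (23.5%) and 2 fell (5.88%). NHP2, a small nucleolar RNA-binding protein, fell from 103 and 105 to 62.2 and 57.3 (-0.79). Small RNA machinery, which carries out siRNA silencing, had 3 rises (17.6%) and 4 falls (23.5%) among 17, shares close to those over all genes. TNRC6B, a partner of Argonaute, was higher by 0.68. Replication-dependent histone genes, which are near-identical copies, rose in 4 of 18 (22.2%) and fell in 6 (33.3%). Chromatin modifiers fell in 12 of 54 (22.2%, close to the share over all genes) and rose in 4 (7.41%). Heat shock genes rose in 4 of 18 (22.2%) and fell in 3 (16.7%). NF-kB targets rose in 1 of 11 (9.09%) and fell in 2 (18.2%), and epithelial-mesenchymal genes rose in 1 of 10 (10%) and fell in 2 (20%). Falls of chromatin modifiers numbered 6 with DESeq2 and 7 with plain reads per M. The 3 basal markers tested held 1 fall, of ITGA6. It lost its call without siNC replicate 1 (-0.22) and also without siPARP1-B replicate 1 (-0.21). The 5 stromal markers held 1 rise and 1 fall, neither of which was called in every setting.

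**Figure D3:**
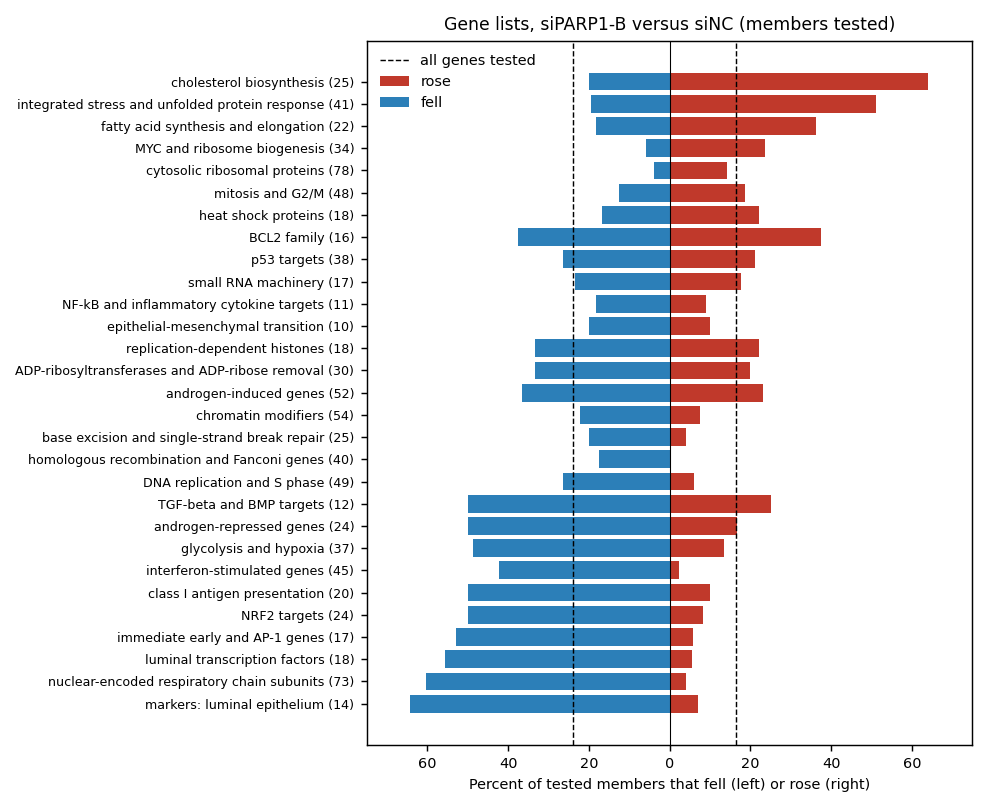
Percent of the tested members of lists with at least 10 tested members that rose (red, to the right) or fell (blue, to the left) in siPARP1-B versus siNC, with the number tested after each name and dashed lines at the percent over all genes (16.4% rose, 23.9% fell). Cholesterol and stress genes extend furthest to the right, and luminal markers and respiratory chain subunits furthest to the left among the lists drawn, which leave out the metallothioneins, the UGT2B enzymes and 4 short marker lists.

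The other siRNA against PARP1, siPARP1-A, served to ask where siPARP1-B differed from a reagent with the same target. The comparison of each with siNC uses the same control libraries, so the difference between the PARP1 siRNAs was tested directly. PARP1 was slightly higher with siPARP1-B, at 8.99 and 9.05 against 4.78 and 5.67 normalised reads (difference 0.69, SE 0.07, adjusted p = 1.6e-08). Of the genes tested, 3361 were higher in siPARP1-B (26.5%) and 3604 lower (28.4%), in all 54.8%. At least 2-fold differences numbered 465 higher (3.66%) and 334 lower (2.63%), against 96 and 132 for siPARP1-B versus siNC.

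Among the largest differences, AP1M2, an epithelial clathrin adaptor subunit, was at 150 and 146 in siPARP1-B, 184 and 176 in siNC and 3.45 and 3.44 in siPARP1-A (5.06, SE 0.07). GNG5, a G-protein gamma subunit, was at 414 and 397 against 37.0 and 39.5 (3.37, SE 0.06), with 363 and 349 in siNC. In both of these siPARP1-A stood far from the other 2 groups. FZD6 went the other way, at 18.8 and 19.8 with siPARP1-B and 99.8 and 105 with siPARP1-A (-2.35, SE 0.06), and the 4 PARP2 siRNA libraries held it at 80.0 to 94.2. PEX19, at 39.4 and 38.5 against 201 and 213, differed likewise (-2.38, SE 0.06), as did PRCC (-1.75) and the RNA cyclase RTCA, at 59.1 and 57.3 against 206 and 211 (-1.82). VDAC1 was at 250 and 236 with siPARP1-B, 694 and 710 with siPARP1-A and 361 to 848 in the PARP2 siRNA libraries. CDKN1A was below siNC with siPARP1-B, at 148 and 137, and above it with siPARP1-A, at 817 and 853 (difference -2.54, SE 0.06, adjusted p = 1.9e-20). FAS, a death receptor, was at 4.93 and 4.56 against 30.5 and 31.7 (-2.48). In siNC it was at 4.87 and 4.25, and siPARP1-B did not pass against siNC (0.05, adjusted p = 0.78 by limma).

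**Figure D4:**
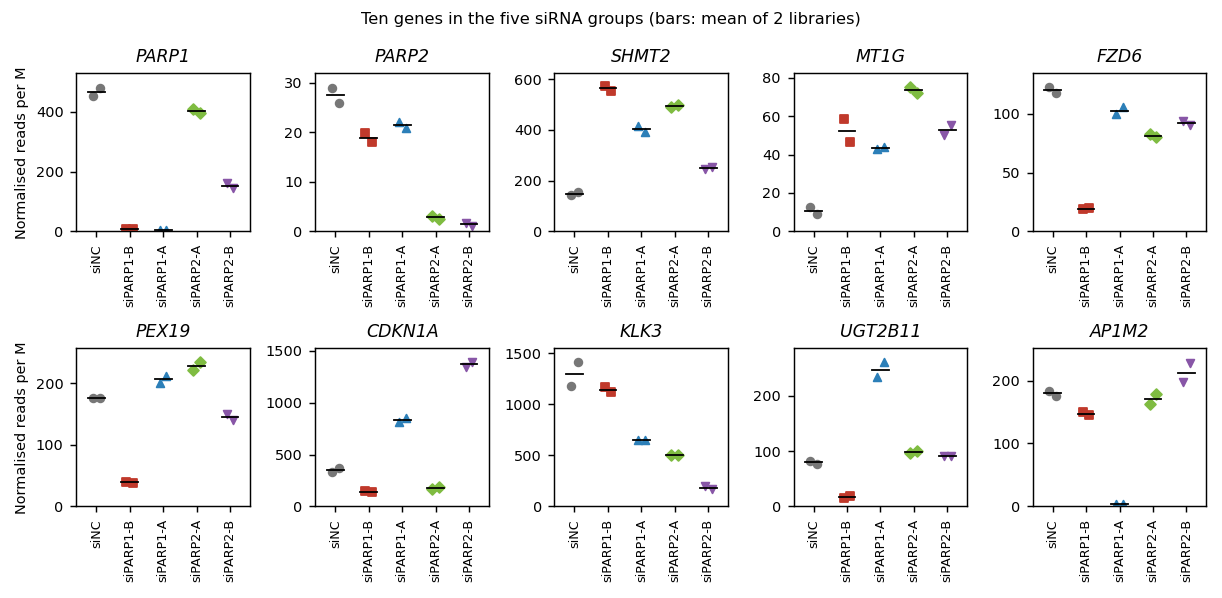
Normalised reads per M of 10 genes in 5 siRNA groups, each point a library and each bar the mean of 2 libraries, with every axis starting at 0. FZD6 and PEX19 are low with siPARP1-B alone (18.8 to 39.4), AP1M2 with siPARP1-A alone (3.45 and 3.44), and CDKN1A lies on opposite sides of siNC with the 2 PARP1 siRNAs.

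The list counts against siPARP1-A stand beside 26.5% of all genes tested that were higher in siPARP1-B and 28.4% that were lower. As lists, 26 of 38 p53 targets were lower in siPARP1-B than in siPARP1-A and 2 higher. Against siNC, 10 of the 38 fell with siPARP1-B and 8 rose. A count of differences between the PARP1 siRNAs does not show which of them departed from siNC. Androgen-induced genes were mostly higher: 43 of 52 were higher with siPARP1-B and 3 lower, with a median difference of 0.90 against -0.02 over all genes. Against siNC, 12 of the 52 rose with siPARP1-B and 19 fell. KLK3 was at 1165 and 1121 with siPARP1-B against 645 and 649 with siPARP1-A (0.82, SE 0.07), and at 1176 and 1413 with siNC. NCAPD3, a condensin subunit, was at 762 and 812 against 113 and 100 (2.87, SE 0.07). Replication genes were higher in 31 of 49 and lower in 5, and cholesterol genes higher in 19 of 25 and lower in 2. Stress response genes were higher in 26 of 41 and lower in 6, although PHGDH, at 600 and 582 against 595 and 571, did not pass (0.02, adjusted p = 0.79). Respiratory chain genes were lower in 43 of 73 and higher in 3, and interferon-stimulated genes lower in 25 of 45 and higher in 7.

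**Figure D5:**
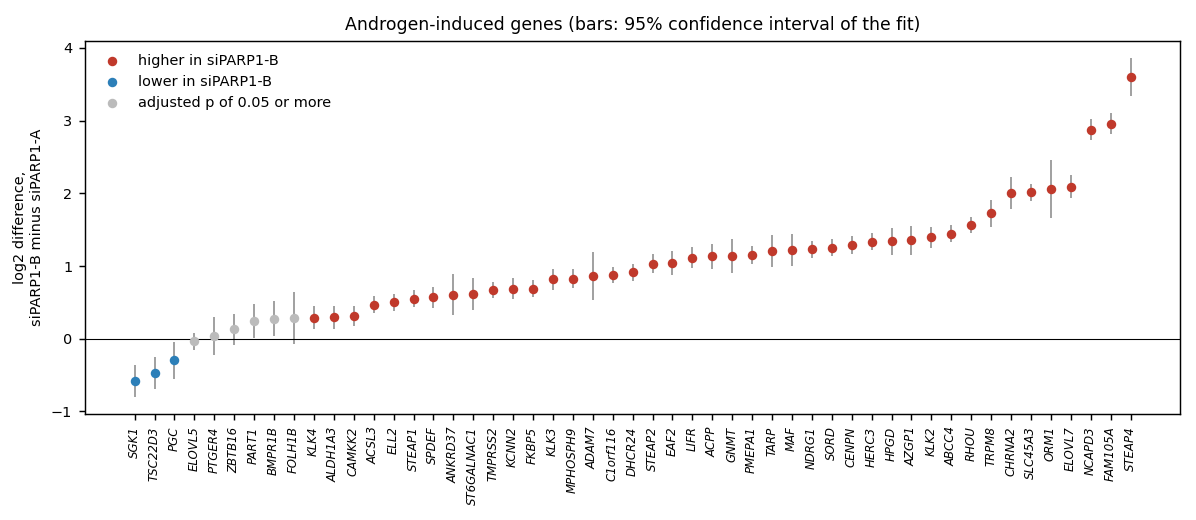
Log2 difference between siPARP1-B and siPARP1-A for 51 of the androgen-induced genes, with the 95% confidence interval of the fit, in order of the difference. Red points are the 42 genes shown that were higher in siPARP1-B, blue points the 3 that were lower, and the axis runs up to STEAP4 at 3.60.

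The siRNAs against PARP2 gave a comparison with loss of the related enzyme. Against the mean of siPARP2-A and siPARP2-B, 3916 genes were higher in siPARP1-B (30.8%) and 4092 lower (32.2%), in all 63.1%. Differences of at least 2-fold numbered 486 higher (3.83%) and 323 lower (2.54%). PARP1 was at 409 and 395 with siPARP2-A and at 160 and 145 with siPARP2-B, below the siNC values in both groups, and PARP2 was at 1.01 to 3.06 normalised reads there against 19.8 and 17.96 with siPARP1-B. Androgen-induced genes were higher with siPARP1-B in 46 of 52 and lower in 1, with a median difference of 1.22. KLK2 was at 459 and 448 with siPARP1-B, 90.1 and 85.6 with siPARP2-A and 39.1 and 31.9 with siPARP2-B (95% confidence interval of the difference 2.87 to 3.13), and FKBP5, a cochaperone of steroid receptors, at 932 and 965 against 59.4 to 307 (2.79, SE 0.05). Mitotic genes were higher in 46 of 48 and lower in 1 (median 1.19), and replication genes higher in 38 of 49 and lower in 1. Interferon-stimulated genes were lower in 38 of 45 and higher in 1. ISG15 was at 43.6 and 44.4 with siPARP1-B, 62.8 and 61.9 with siPARP2-A and 408 and 433 with siPARP2-B. These list counts use the mean of the PARP2 siRNAs and were not made for each alone. RSAD2, the antiviral enzyme viperin, was at 0.666 and 0.553 with siPARP1-B, 1.22 and 0.938 with siPARP2-A and 223 in both siPARP2-B libraries. MAN1A1, a Golgi mannosidase, was at 3.60 and 3.25 against 10.2 and 11.9 with siPARP2-A and 139 and 145 with siPARP2-B (-3.23, SE 0.11). Both of these differences rested mainly on siPARP2-B. Respiratory chain genes were lower with siPARP1-B in 62 of 73 and higher in 2, and cholesterol genes higher in 21 of 25 and lower in 2. Stress response genes were higher in 19 of 41 and lower in 10.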

How the data were processed

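RNA from LNCaP cells was sequenced after transfection with 1 of 5 siRNAs, in 2 libraries each. Per the labels' protocols, total RNA was made into libraries with a NEBNext Ultra RNA kit. Build hg19 and the tools HTSeq 0.6.1, edgeR 3.12.0, TopHat2 2.1.0 and bcl2fastq 2.18 are listed, without roles, per the submitters' processing notes. The deposited values are a normalised signal: the authors divided reads by each library's size, in M, after scaling that size. All nonzero values (100%) were within 0.01 of a whole number of reads, so reads were recovered from them. Symbols missing from the table (3517 features) were filled by gene identifier, leaving 1776 without one. No batch is named in the labels.

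Tests were run with limma 3.58.1 in R 4.3.3, with its mean-variance trend, on log2(value + 1), in 1 fit of all 10 libraries in 5 groups (5 residual degrees of freedom), over genes with a mean of at least 1. Fold changes are on the log2(value + 1) scale, which understates the change of low genes. P-values were adjusted by Benjamini-Hochberg over all genes tested, with a threshold of 0.05. With 2 libraries a group, they measure the spread between these duplicates, pooled over groups.

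The genes named were PARP1 and PARP2, the 15 largest rises and falls with separate libraries, up to 4 members per list by adjusted p, and the 6 largest differences each way from siPARP1-A and from the PARP2 siRNAs. The members and 33 lists were chosen with earlier results of these data known, and 2 further lists after their genes had been seen. Genes named outside this rule were chosen after their values were seen. Alternatives were pseudocounts of 0.5 and 0.25, no filter, a mean of at least 5, median-of-ratios size factors, plain reads per M, only the groups compared, a replicate block, edgeR 4.0.16 and DESeq2 1.42.0 on recovered reads, each library left out in turn, and a correction for GC content and length added after seeing the data. The procedure was tested on simulated data. Results for a few genes on these lists are not reported here, although the list counts include them.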

Additional observations from a re-analysis of the deposited data

Results flagged for a closer look

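For 12 genes the effects of the PARP1 siRNAs differed by a direct test of siPARP1-B against siPARP1-A, with limma's adjusted p-values between 1.6e-25 and 3.7e-14. They were the 6 largest differences in each direction and so were selected for size. Higher with siPARP1-B were AP1M2, an epithelial clathrin adaptor subunit (log2 difference 5.06), STEAP4, a metalloreductase (3.60), GNG5, a G-protein gamma subunit (3.37), RLN1, a relaxin (3.17), F5, coagulation factor V (3.119), and CD274, the immune checkpoint ligand PD-L1 (3.11). CD274 was at 22.6 and 26.8 normalised reads with siPARP1-B, 21.6 and 19.4 with siNC and 1.57 and 2.42 with siPARP1-A. Lower with siPARP1-B were UGT2B10, a glucuronosyltransferase (-4.89), GSTA2, a glutathione transferase (-4.27), UGT2B11 (-3.78), SMIM10L2B (-3.77), UNC13C, a synaptic vesicle priming protein (-3.61), and S1PR3, a receptor for sphingosine-1-phosphate (-3.20). S1PR3 was at 5.86 and 6.36 with siPARP1-B, 9.22 and 9.53 with siNC and 63.4 and 64.9 with siPARP1-A. UGT2B10 was at 3.20 and 3.32, 9.61 and 8.96, and 121 and 130 in the same order. UGT2B10, UGT2B11, GSTA2 and SMIM10L2B have close relatives with which reads may be shared.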

How the results depend on the processing

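The number of genes called in siPARP1-B versus siNC was 5125 and ran from 3803 with DESeq2 to 5470 with the correction for GC content and length, a setting chosen after seeing the data. Leaving out 1 library at a time gave 3836 to 4259, where the lone library of a group is assumed to vary like the others. The share of calls that were falls ran from 52.4% to 63.1%, with 59.3% as reported. Several list counts moved by more than 1.5 times over the settings: rises of ribosomal protein genes (11, from 2 to 23), ribosome biogenesis genes (8, from 5 to 14), mitotic genes (9, from 5 to 12), p53 targets (8, from 5 to 11) and heat shock genes (4, from 3 to 7), and falls of replication (13, from 4 to 13), homologous recombination (7, from 3 to 8), base excision (5, from 3 to 8), ADP-ribose (10, from 5 to 10), chromatin (12, from 6 to 12), small RNA machinery (4, from 1 to 4) and NF-kB genes (2, from 1 to 2). So did other counts of 6 or fewer, among them falls in cholesterol biosynthesis (5, from 3 to 5) and calls among the basal, stromal, neuroendocrine and immune or endothelial markers. The falls of interferon-stimulated genes went from 19 to 12 without siPARP1-B replicate 2. They ran from 12 to 17 over the 4 fits that left out a library, and the cause was not tested. Values of 3 genes that were not called changed sign against siNC when a library was left out, on the log2 scale: MKI67 ran from -0.00864 without siNC replicate 1 to 0.638, FAS from -0.0321 without siNC replicate 2 to 0.129, and MAN1A1 from -0.0235 without siPARP1-B replicate 1 to 0.0905. Same-numbered libraries did not deviate together (correlations -0.141 to 0.115 between groups), so the numbers were not taken to pair the samples, and with a replicate block 5021 genes were called. Across genes, the fold change had a rank correlation of -0.04 with GC content and -0.04 with length. Genes near 1 normalised read rest on few reads, and a difference there was often not detectable at this depth.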
